A study of Mus musculus with 16 samples.

Results

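The 50 genes described here act when a cell passes from G2 phase through mitosis to division. They were chosen by function, as spindle, kinetochore, condensin, passenger-complex and cytokinesis genes together with the kinases and cyclins that start mitosis. All 50 were found among the 17128 genes measured in plasmacytoid dendritic cells (pDCs) and among the 17721 measured in conventional dendritic cells (cDCs). Expression had been measured by RNA-seq in 16 libraries of sorted splenic dendritic cells (DCs) from C57BL/6 mice aged 6 to 8 weeks. Trim33 fl/fl mice served as wild type (WT), and Trim33 fl/fl Itgax-Cre mice as the conditional knockout (cKO). The floxed Trim33 alleles were thus shared by both genotypes. Itgax encodes CD11c, so Cre was driven in CD11c-expressing cells and not in DCs alone. For pDCs, sorted as CD11c+ SiglecH+ cells, each genotype had 3 libraries. Both cDC subsets were CD11c+ and MHC II+ without SiglecH. Those with CD24 and no CD172a were taken as cDC1s, with 2 libraries per genotype, and those with CD172a and no CD24 as cDC2s, with 3 per genotype. Cells of other lineages had been depleted with antibodies before the sort. Each library pooled several mice, and the cKO libraries pooled more mice than the WT libraries. The comparisons ask what loss of Trim33, a chromatin-associated ubiquitin ligase that also takes part in TGF-beta signalling, goes along with in each DC subset.

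As background, transcripts of these genes are low in resting cells, appear late in S phase and peak in G2 and mitosis. A protein complex called MuvB, which joins B-MYB and FOXM1 in dividing cells and forms the repressor DREAM in resting cells, binds their promoters through an element named the cell cycle genes homology region (CHR), often next to CCAAT boxes bound by NF-Y. Their level in a population therefore follows mainly how many cells are dividing. Mature splenic pDCs divide rarely, while cDCs of the spleen keep a dividing fraction. In bulk libraries, more dividing cells and more transcript per dividing cell cannot be told apart.

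The promoters of 4 of the genes with values in every library below are shown. They were picked from different functional roles for having the most CHR and CCAAT matches, so these promoters are not typical of the group. They come from RefSeq (GRCm38.p6), which gave 43 promoters for 41 of the 50 genes, each from 250 bases before to 50 bases after the transcription start. The letters TTTGAA and TTTAAA were searched as the CHR, CCAAT as the CCAAT box, and TTTCGCGC, TTTGGCGC, TTCGCGCC and TTGGCGCC as the E2F site, on both strands. TTTAAA reads the same on both strands, and overlapping matches were each counted. The sequences run 5′ to 3′ on the strand of the gene, with every match in capitals.
Top2a, chr11:99024140-99024439, minus strand: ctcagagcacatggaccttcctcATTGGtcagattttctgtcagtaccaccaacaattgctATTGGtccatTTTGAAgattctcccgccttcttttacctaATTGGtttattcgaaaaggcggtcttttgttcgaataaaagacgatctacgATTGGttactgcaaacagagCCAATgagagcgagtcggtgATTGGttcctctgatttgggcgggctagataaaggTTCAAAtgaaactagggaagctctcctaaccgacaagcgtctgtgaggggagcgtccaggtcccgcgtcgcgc
Ube2c, chr2:164769679-164769978, plus strand: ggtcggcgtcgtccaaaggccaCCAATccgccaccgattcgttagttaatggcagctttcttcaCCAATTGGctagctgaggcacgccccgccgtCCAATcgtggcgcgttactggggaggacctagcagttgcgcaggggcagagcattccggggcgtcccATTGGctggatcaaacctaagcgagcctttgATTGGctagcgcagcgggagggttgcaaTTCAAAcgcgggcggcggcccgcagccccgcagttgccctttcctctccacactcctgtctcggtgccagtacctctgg
Hmmr, chr11:40733388-40733687, minus strand: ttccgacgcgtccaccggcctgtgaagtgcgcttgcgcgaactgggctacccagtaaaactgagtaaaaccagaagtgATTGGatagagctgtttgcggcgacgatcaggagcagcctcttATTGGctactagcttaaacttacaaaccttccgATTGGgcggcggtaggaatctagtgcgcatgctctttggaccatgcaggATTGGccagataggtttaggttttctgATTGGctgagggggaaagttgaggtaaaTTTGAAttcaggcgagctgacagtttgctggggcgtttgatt
Ect2, chr3:27153805-27154104, minus strand: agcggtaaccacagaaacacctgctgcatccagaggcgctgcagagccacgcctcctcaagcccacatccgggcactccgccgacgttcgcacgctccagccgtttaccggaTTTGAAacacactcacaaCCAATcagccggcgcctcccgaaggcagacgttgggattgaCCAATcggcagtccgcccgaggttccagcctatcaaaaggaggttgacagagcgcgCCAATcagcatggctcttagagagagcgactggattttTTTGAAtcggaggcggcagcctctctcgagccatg
Top2a has 6 CCAAT matches and 2 CHR matches, and the CHR match nearer its start begins 23 bases before it. Ube2c has 6 CCAAT matches, of which an overlapping pair shares letters, and 1 CHR match that begins 29 bases before the start. Hmmr has 5 CCAAT matches and 1 CHR match, and Ect2 has 3 and 2. None of the 4 windows holds the E2F letters.

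Across the 43 promoters the CHR letters stood in 37 (86%), against 27.6% of all 32851 promoters in the same collection. In the last 150 bases of the window the share was 79.1% of the promoters of the group and 12.8% of all promoters. CCAAT was present in 74.4% against 37.4%, and at least 2 copies of it in 48.8% against 11.7%. A CHR match in the last 150 bases together with at least 2 CCAAT matches was found in 19 of the 43 promoters (44.2%) and in 1.48% of all promoters. The E2F letters were found in 4 of the 43 (9.3%), against 1.78% of all. The windows of Nuf2, Ncaph, Melk, Mad2l1 and Nusap1 hold none of these letters. These matches describe letters in a window and not bound sites.

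Trim33 itself, the deleted gene, was measured first. In pDCs its level was 20.6, 23.8 and 22.3 TPM, transcript abundance scaled to the library's total, in the WT libraries and 12.6, 16.5 and 11.7 in the cKO libraries. In cDC1s it was 15.5 and 18.2 in WT and 7.88 and 7.71 in cKO, and in cDC2s 20.6, 18.2 and 17.2 TPM in WT and 7.93, 7.13 and 8.07 TPM in cKO. The cKO libraries were lower than every WT library in each subset, at 61.2%, 46.3% and 41.3% of the WT mean. Linear models on log2(TPM + 1) were fitted across all genes with limma, and a gene was called at a Benjamini-Hochberg adjusted p of at most 0.01 together with a log2 fold change of at least 0.5 in either direction. Fold changes below are log2 values of cKO against WT on this scale, with the standard error after ±, and they understate the change of genes near 0 TPM. Trim33 was called in cDC1s (-1.02 ± 0.13, adjusted p = 0.000349) and in cDC2s (-1.17 ± 0.11, adjusted p = 0.000126). In pDCs it missed the limit (-0.68 ± 0.13, adjusted p = 0.0301), and was called there with the replicate number as a block (adjusted p = 0.00361). Levels were given per gene, so reads from the deleted and the retained parts of Trim33 could not be told apart.

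The estimated depth was 18020000 to 20060000 reads per library, so that 1 TPM on a 2000-base transcript stands for 16.3 to 21.1 reads and a limit of 3 reads for 0.142 to 0.184 TPM, counting error only. Siglech, Xcr1 and Sirpa matched the sort. Siglech was at 4367 to 5131 TPM in pDC libraries and at 3.21 to 9.6 in cDC libraries. Xcr1 was at 202 to 307 in cDC1s and at 1.71 to 6.6 in cDC2s, and Sirpa, which encodes CD172a, at 3.75 to 7.43 and 444 to 582. Other subset markers differed between the genotypes. Of 8 cDC1 markers, Cadm1, Clec9a and Itgae were called lower in cKO cDC1s, beside 749 of all 11411 genes. Of 8 cDC2 markers, Cd4, Esam, Irf4, Itgam and Mgl2 were called in cDC2s, 2 higher and 3 lower in cKO. There 410 of all genes were called higher and 406 lower. Itgam was also called higher in cKO pDCs. The part of this in the results below was not tested. Erythroid markers summed to 281 to 8000 TPM, with the highest value in WT cDC2 library 2. Libraries that stand apart within a group are named with the results they touch. The pDC and cDC tables had been made separately by the authors, so levels set across them were not tested.

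Summed over the 50 genes, the level was lowest in WT pDCs, and the cKO mean was above the WT mean in each subset. In WT pDCs the sum came to 199, 209 and 199.7 TPM by library, and in cKO pDCs to 738, 563 and 399.8 TPM. The cKO mean was 2.80 times the WT mean. In cDC1s the WT libraries held 708 and 1070 TPM and the cKO libraries 1850 and 1667 TPM, a ratio of 1.98. In cDC2s the WT libraries held 1089, 1190 and 1637 TPM and the cKO libraries 1658, 1865 and 1585 TPM, a ratio of 1.30. The genotypes did not overlap in pDCs or cDC1s, while WT cDC2 library 3 lay within the range of the cKO cDC2 libraries. The sum is a description with no test.

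**Figure D1:**
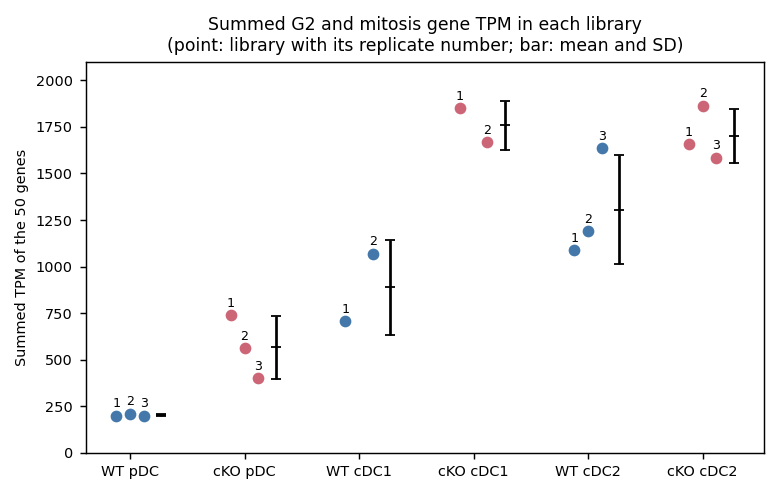
Summed TPM of the 50 G2 and mitosis genes (y axis) in each of the 16 libraries, by group (x axis), with points for libraries, their replicate numbers, and the group mean with its SD beside them (blue WT, red cKO). The WT pDC libraries sit between 199 and 209 TPM and every other library lies above them, and the highest is cKO cDC2 library 2 at 1865 TPM.

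In pDCs most of the genes went from low or barely measurable levels in WT to clear levels in cKO. In the WT libraries 25 to 30 of the 50 genes reached 1 TPM, and in the cKO libraries 48 to 50 did. Each cKO library exceeded all 3 WT libraries for 49 of the 50 genes, the exception being Cenpa. The ratio of the cKO to the WT mean had a median of 6.76 over the 50 genes and ran from 1.27 for Smc4 to 21.1 for Ncapg. It followed the WT level. The median ratio was 12.3 for the 23 genes with a WT mean under 1 TPM. For the 19 genes from 1 to under 5 TPM it was 3.8, and for the 8 above these 1.89. The median rise in TPM went the other way, at 3.88, 7.87 and 10.9 TPM. Of the 48 genes tested, 18 were called higher and none lower, against 0.814% of the 11299 genes tested being called higher. The cKO libraries lay above all WT libraries for 47 of these 48 genes, against 10.8% of all genes tested. For 23 of the 50 genes the WT mean was under 1 TPM, so those tested passed the filter of a mean of at least 1 TPM through their cKO libraries, and the counts over tested genes describe the group and do not support it. Cdc25c and Cenpf did not pass. Cdc25c and Ttk were at or under the limit of 3 reads in at least 2 of the WT libraries. The log2 fold changes of the 48 genes were all positive, with a median of 1.63, while the median of all genes tested was -0.05.

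Over all genes, the same-numbered WT and cKO pDC libraries deviated together (r of 0.21 to 0.39). The library titles share replicate numbers and state no pairing, so pairs were assumed with these data seen. Over the 50 genes the order was not shared, with cKO library 1 the highest of its group for 47 and WT library 1 for 14. With the replicate number as a block 36 of the 48 genes were called higher, against 2.3% of all genes tested in that fit. The count of calls without the block rested on single libraries. Without WT library 3 it was 0, with 47 of 48 genes at an unadjusted limma p under 0.05, and without WT libraries 1 and 2 it was 7 and 6. Without cKO libraries 1, 2 and 3 it was 10 of 43, 4 of 47 and 22 of 48 genes. With no filter on low values 0 of 50 were called, all 50 had an unadjusted p under 0.05, and without the mean-variance trend 7 of 48 were called. All log2 fold changes of the group stayed positive in each of these fits.

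The cKO pDC libraries differed among themselves. Library 1 was the highest of the 3 for 47 of the 50 genes, against 50.8% of all genes tested, and library 3 was the lowest for all 50, against 36.3%. Their summed levels were 3.64, 2.78 and 1.97 times the WT mean. Neutrophil genes moved in part with this order. The summed level of 10 neutrophil markers was 9.97 to 30.4 TPM in WT and 139.5, 30.8 and 52.3 TPM in cKO libraries 1, 2 and 3, led in library 1 by Ngp (53.7 TPM) and S100a9 (42.2 TPM). All 5 neutrophil markers tested were higher in cKO, with a median log2 fold change of 1.40, and 3 had an unadjusted p under 0.05 with none called, and Ly6g and Retnlg were at most 0.82 and 1.26 TPM in all 6 pDC libraries. The 8 B cell markers summed to 63.4 to 94.9 TPM in WT and to 148.7, 69.5 and 89.8 TPM in cKO, with Cd79a at 38.3 TPM in cKO library 1 and none of 5 tested called, at unadjusted p values that were all above 0.05, though Cd79a was called with the block. The 8 plasma cell markers summed to 628 to 704 TPM in WT and 768 to 830 TPM in cKO, where 1 of the 6 tested, Mzb1, was called, and Tnfrsf17 was at most 0.45 TPM throughout. Of the 5 T cell markers tested 4 were higher in cKO and 4 had an unadjusted p under 0.05, with a median log2 fold change of 0.77, and Thy1 was called. Cd8b1 alone of the 5 was lower (-0.85 ± 0.17), and it carried most of the summed level of 516 to 809 TPM in WT and 352 to 410 TPM in cKO. Cd3d, Cd3e and Cd3g were at most 0.94 TPM and not tested. Of 10 monocyte and macrophage markers tested 8 were higher and 6 had an unadjusted p under 0.05, with none called. Beside these marker counts, 2352 of all 11299 genes tested in pDCs had an unadjusted p under 0.05. Without cKO library 1 all 43 genes tested were positive, with a median log2 fold change of 1.41. The part of these other cells in the pDC result was not tested.

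In cDC1s the genes were already well measured in WT, and 26 of 50 were called higher in cKO and none lower. All 50 log2 fold changes were positive, with a median of 0.93. The median of all genes tested in cDC1s was itself 0.17, and 15.8% of 11411 genes were called higher. Counted from that median, the same number of 26 genes passed a limit of 0.5. This moved the fold limit alone and kept the adjusted p of the same fit, so it does not replace rescaling. The 26 include the topoisomerase Top2a, the proliferation marker Mki67, 4 of the 5 condensin genes, and the kinetochore genes Ndc80, Nuf2, Spc24 and Spc25. Both cKO libraries exceeded both WT libraries for 49 of the 50 genes, against 52.1% of all genes tested, and the exception was Ccnb1. Ratios of means ran from 1.42 for Cenpa to 2.76 for Anln, with a median of 1.95.

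The cDC1 count depended on scaling and on single libraries. With median-of-ratios scaling, where the median of all genes is 0.02, 13 of the 50 were called, and with quantile normalization 12. Over all genes, 1806 were called higher and 749 lower by TPM, against 1068 and 1070 with median-of-ratios scaling. WT library 1 was below WT library 2 for all 50 genes, against 45.4% of all genes tested. Without WT library 1 a single gene was called and the median log2 fold change was 0.62, and without WT library 2 these were 34 and 1.25. Without cKO library 1 and cKO library 2, 1 and 2 genes were called. In these fits the lone library of an arm was taken to vary like the other groups, and all 50 log2 fold changes stayed positive. The 10 neutrophil markers summed to 2.09 and 17.7 TPM in the WT libraries and 23.3 and 43 TPM in the cKO libraries, with all 5 tested higher in cKO (median log2 fold change 1.63), none called and 1 at an unadjusted p under 0.05. Among all 11411 genes tested in cDC1s, 5541 had an unadjusted p under 0.05, which is the background for these marker counts. Of 4 progenitor markers tested 3 were higher and all 4 had an unadjusted p under 0.05, with a median of 0.69. The progenitor marker Cd34 was called higher, at 2.18 and 3.43 TPM in WT and 11 and 10.5 TPM in cKO, Cebpa was at 28.4 and 52.3 TPM in WT and 65.4 and 60.8 TPM in cKO, Meis1 at 1.75 and 3.09 TPM in WT and 4.35 and 4.46 TPM in cKO, and Kit was lower, at 153 and 143 TPM in WT and 110.4 and 111 TPM in cKO. Of 11 monocyte and macrophage markers 9 had an unadjusted p under 0.05, with Ly6c2, Ccr2 and Csf1r called higher and Vcam1 lower. Of 9 pDC markers tested Bst2, Tcf4 and Cox6a2 were called higher and Ccr9 and Pacsin1 lower, and their list summed to 188 and 168 TPM in WT and 268 and 275 TPM in cKO. Cox6a2 was also called higher in cKO pDCs themselves (1.46), and it was called in cDC2s too. The part of such cells in the cDC1 result was not tested.

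In cDC2s none of the 50 genes was called by limma, and 19 had an unadjusted p under 0.05, beside 3896 of all 11411 genes. The background was 3.59% of 11411 genes called higher. Log2 fold changes were positive for 48 genes and negative for Cdc25c and Cenpf, with a median of 0.38 against -0.03 for all genes. All 3 cKO libraries lay above all 3 WT libraries for 15 genes of 50, against 16.3% of all genes tested, and all 3 lay below for Cdc25c. With the adjusted p limit relaxed to 0.05 and the fold limit dropped, 6 genes (12%) passed as higher in cKO, near the 9.74% of all genes that did, and they were Pbk, Bub1, Bub1b, Spc24, Anln and Ncapg. WT library 3 was the highest of the WT libraries for 47 of the 50 genes, against 52% of all genes tested. Without it 8 genes were called, and with it no leave-one-out fit called any. With median-of-ratios scaling 1 gene was called. The monocyte and macrophage markers summed to 1946 to 2389 TPM in WT and 3261 to 4206 TPM in cKO, where Lyz2, Csf1r and Ccr2 of the 11 were called higher. Neutrophil markers were highest in WT library 3 (36.7 TPM) and in cKO library 2 (84.2 TPM), and these libraries had the highest sums of the 50 genes in their groups. The part of these cells in the cDC2 values was not tested.

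The difference between the subsets was tested within the cDC fit. The cDC1 effect minus the cDC2 effect was positive for all 50 genes, with a median of 0.57 against 0.22 for all genes, and none was called, against 2.56% of all genes called in either direction. Of the 50, 14 had an unadjusted p under 0.05, beside 3499 of all 11411 genes. Smc2, a condensin subunit, had the lowest adjusted p, with a difference of 0.91 ± 0.25 and an adjusted p of 0.0462. With median-of-ratios scaling the median difference was 0.36, 49 were positive and none was called. Without WT cDC1 library 1 the median difference was 0.30, with 48 positive, and without WT cDC1 library 2 it was 0.88. Without cKO cDC1 library 1 it was 0.51. A call in cDC1s and none in cDC2s is thus not shown to be a difference between them.

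Among WT cells most of the genes had lower means in cDC1s than in cDC2s. The WT cDC1 mean was below the WT cDC2 mean for 48 of the 50 genes, the log2 difference had a median of -0.60, and 10 genes were called lower in cDC1s and none higher. The background was 20.8% of all genes called lower and a median of -0.17. The 10 are Espl1, Ndc80, Spc25, Kif11, Kif2c, Tpx2, Nusap1, Anln, Mki67 and Smc2. With median-of-ratios scaling 2 were called, all genes then dividing into 1817 called higher and 1715 lower in place of 1241 and 2371. Without WT cDC1 library 1 a single gene was called and the median was -0.31, and without WT cDC1 library 2 there were 21 and the median was -0.87. In cKO cells the cDC1 mean was below the cDC2 mean for 26 of 50 genes. Set side by side with no test across tables, every WT pDC library was below every WT cDC2 library for 49 of the 50 genes, and every cKO pDC library was below every WT cDC2 library for 48. Racgap1 was higher in every cKO pDC library than in any WT cDC library.

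**Figure D2:**
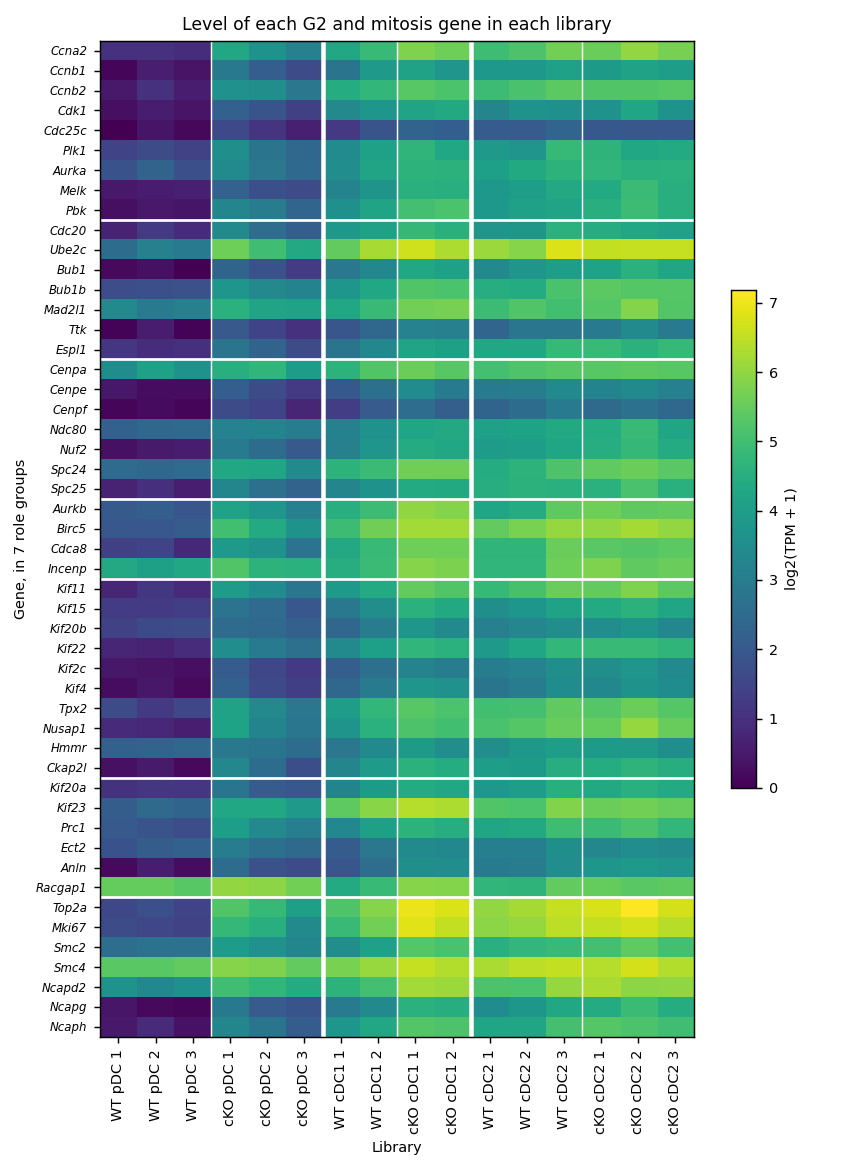
Level of each of the 50 genes (rows, ordered by the 7 role groups that white lines separate) in each of the 16 libraries (columns), as log2(TPM + 1) in colour. The WT pDC columns are darkest except in rows such as Racgap1 and Smc4, which were at 38.8 to 43.7 TPM there, and the 2 cKO cDC1 columns are lighter than the 2 WT cDC1 columns.

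Of the mitotic entry kinases and cyclins, 3 were called higher in pDCs and 3 in cDC1s. Log2 fold changes were positive for all 8 tested in pDCs and all 9 in cDC1s. Their summed level over 9 genes was 6.66 times the WT mean in pDCs, 1.87 times in cDC1s and 1.27 times in cDC2s. Ccna2, Ccnb2 and Pbk were called among 8 tested in pDCs, and Ccna2, Melk and Pbk among 9 in cDC1s. With the block 7 of the 8 were called in pDCs. For this role and those below, 0.814% of all genes were called higher in pDCs and 15.8% in cDC1s. With the block the pDC share was 2.3%. Ccna2 (Gene ID 12428, chr3:36564865-36573038) encodes cyclin A2, which binds Cdk2 in S phase and Cdk1 in G2. It was at 1.04, 1.03 and 0.91 TPM in WT pDCs and 18.3, 11.6 and 7.71 TPM in cKO pDCs. Ccna2 in cDC1s was at 18.4 and 28.5 TPM in WT and 54.7 and 47.5 TPM in cKO. Ccna2 in cDC2s was at 30.1, 35.6 and 49.3 TPM in WT and 46.9, 64 and 51.9 TPM in cKO. The genotypes were apart in pDCs (2.69 ± 0.26, adjusted p = 0.00258) and in cDC1s (1.12 ± 0.25, adjusted p = 0.00598), and overlapped in cDC2s. Pbk (Gene ID 52033, chr14:65805911-65817822), a mitotic kinase, had the largest mean fold change of the role. Its level in pDCs was 0.22, 0.41 and 0.33 TPM in WT and 8.84, 7.16 and 4.07 TPM in cKO, in cDC1s 11.1 and 17.2 TPM in WT and 32.1 and 34.8 TPM in cKO, and in cDC2s 13.2, 16.2 and 17.2 TPM in WT and 21.7, 29.7 and 21.8 TPM in cKO. No cKO library of any subset was at or below a WT library for Pbk, and the fold change was 2.49 ± 0.24 in pDCs and 1.21 ± 0.21 in cDC1s, both called. Aurka (Gene ID 20878, chr2:172356190-172370886), the kinase of the spindle poles, had the smallest mean fold change among the genes of the role tested in all subsets and was not called anywhere. It was at 2.5, 3.9 and 2.37 TPM in WT pDCs and 9.88, 6.22 and 4.53 in cKO pDCs. Aurka in cDC1s was at 10.4 and 17.3 TPM in WT and 23.9 and 23.4 TPM in cKO, and in cDC2s at 15.7, 19.5 and 23.9 TPM in WT and 25.4, 22.5 and 22.9 TPM in cKO. The cKO values stood above WT in pDCs and cDC1s and overlapped in cDC2s. Cdc25c (Gene ID 12532), a phosphatase that activates Cdk1, was too low for the pDC test, at 0, 0.32 and 0.12 TPM in WT and 2, 1.16 and 0.54 TPM in cKO. Cdc25c in cDC1s was at 1.27 and 2.66 TPM in WT and 4 and 3.43 TPM in cKO, and in cDC2s at 3.26, 3.19 and 4.08 TPM in WT and 2.93, 2.86 and 2.88 TPM in cKO, where all cKO values were below all WT values (-0.21 ± 0.17, not called).

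The spindle checkpoint holds back anaphase until chromosomes are attached, and the APC/C with its activator Cdc20 and the ubiquitin-conjugating enzyme Ube2c then starts it. The 7 genes of this role summed to 3.98 times the WT level in pDCs, 1.83 times in cDC1s and 1.29 times in cDC2s. Bub1b and Mad2l1 were called in pDCs, and Bub1, Bub1b, Espl1, Mad2l1 and Ttk in cDC1s. In pDCs the block gave 5 calls of 7. Ube2c (Gene ID 68612, chr2:164769929-164772902), whose promoter is shown above, was the most abundant, at 4.83, 7.73 and 6.87 TPM in WT pDCs and 47.6, 30.5 and 19.4 TPM in cKO pDCs. Ube2c in cDC1s was at 43.2 and 75 TPM in WT and 100.1 and 77.3 TPM in cKO, and in cDC2s at 67.4, 57.6 and 111 TPM in WT and 91.2, 92.2 and 92.2 TPM in cKO. Its pDC fold change of 2.10 ± 0.30 missed the call without the block (adjusted p = 0.0105) and passed with it (adjusted p = 0.00361), and WT cDC2 library 3 held more Ube2c than any cKO cDC2 library. Bub1b (Gene ID 12236, chr2:118598202-118641592), which encodes the checkpoint protein BubR1, was steady across the WT pDC libraries at 2.25, 2.37 and 2.42 TPM and stood at 12.6, 9.5 and 8.54 TPM in cKO. Bub1b in cDC1s was at 12.7 and 18.8 TPM in WT and 36.4 and 34.6 TPM in cKO, and in cDC2s at 21.1, 20.5 and 33.8 TPM in WT and 40.7, 38.5 and 38 TPM in cKO. The genotypes did not overlap in any subset, and it was called in pDCs (1.73 ± 0.15, adjusted p = 0.00158) and cDC1s (1.15 ± 0.23, adjusted p = 0.0035). Espl1 (Gene ID 105988, chr15:102296254-102324357) encodes separase, the protease that cuts cohesin at anaphase. It was at 1.22, 0.91 and 0.99 TPM in WT pDCs, 5.76, 3.86 and 2.13 in cKO pDCs, 5.76 and 8.94 in WT cDC1s and 17.4 and 15.8 in cKO cDC1s. Espl1 in cDC2s was at 18.7, 18.4 and 27.3 TPM in WT and 28.2, 23.5 and 27.2 TPM in cKO. Espl1 was called in cDC1s (1.10 ± 0.22), and it had the largest gap among WT cDCs of the 50 genes, with -1.43 ± 0.20 for cDC1s minus cDC2s (adjusted p = 0.000201).

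Centromere and kinetochore genes build the attachment site for microtubules. The 7 genes summed to 2.56 times the WT level in pDCs, 1.74 times in cDC1s and 1.27 times in cDC2s. Nuf2 and Spc25 were called among 6 tested in pDCs, and Ndc80, Nuf2, Spc24 and Spc25, the 4 subunits of the NDC80 complex that binds microtubules, in cDC1s. The block gave 5 calls of 6 in pDCs. Nuf2 (Gene ID 66977, chr1:169497934-169531464) was at 0.25, 0.44 and 0.45 TPM in WT pDCs and 6.97, 4.82 and 3.05 TPM in cKO pDCs. Nuf2 in cDC1s was at 7.72 and 12.3 TPM in WT and 20.5 and 18.7 TPM in cKO, and in cDC2s at 14.5, 14.9 and 17.9 TPM in WT and 21.4, 26.6 and 20.2 TPM in cKO. The groups were apart in all 3 subsets, with 2.06 ± 0.25 in pDCs and 0.93 ± 0.20 in cDC1s, both called. Cenpa (Gene ID 12615, chr5:30666877-30674837), the histone H3 variant of centromeres, was the most abundant of the role and, among those tested in all subsets, the one with the smallest mean fold change. It was at 10.2, 16.1 and 12 TPM in WT pDCs and 21.6, 25.6 and 14.8 TPM in cKO pDCs, where WT library 2 exceeded cKO library 3. Cenpa in cDC1s was at 23.9 and 36.7 TPM in WT and 46.8 and 39.1 TPM in cKO, and in cDC2s at 32, 35.8 and 39.2 TPM in WT and 38.8, 40.8 and 39.1 TPM in cKO, and it was not called in any subset. Cenpf (Gene ID 108000, chr1:189640606-189688107), a large protein of the outer kinetochore, was not tested in pDCs, where it was at 0.09, 0.15 and 0.08 TPM in WT and 2.14, 1.71 and 0.72 TPM in cKO. Cenpf in cDC1s was at 1.46 and 3.19 TPM in WT and 4.97 and 3.55 TPM in cKO, and in cDC2s at 3.98, 4.84 and 6.99 TPM in WT and 4.64, 5.53 and 4.29 TPM in cKO. The WT and cKO values of Cenpf overlapped in cDC2s, with -0.08 ± 0.23.

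The chromosomal passenger complex, of Aurora B, INCENP, survivin and borealin, corrects wrong attachments and later guides cytokinesis. Its 4 genes summed to 2.81 times the WT level in pDCs, 2.08 times in cDC1s and 1.37 times in cDC2s. Birc5 and Cdca8 were called in pDCs, and Birc5 and Incenp in cDC1s. With the block 3 of the 4 were called in pDCs. Birc5 (Gene ID 11799, chr11:117849237-117855743), the gene of survivin, was even in WT pDCs at 2.89, 2.88 and 3.24 TPM and spread in cKO pDCs at 31.4, 19.9 and 11.7 TPM. Birc5 in cDC1s was at 29.1 and 48.4 TPM in WT and 72.3 and 72.2 TPM in cKO, and in cDC2s at 43.3, 52.9 and 64.7 TPM in WT and 64, 73.2 and 63.8 TPM in cKO. It was called in pDCs (2.36 ± 0.29, adjusted p = 0.00683) and cDC1s (0.93 ± 0.23, adjusted p = 0.00925). Aurkb (Gene ID 20877, chr11:69045624-69051664), the kinase of the complex, was not called in the fits without a block, though its genotypes were apart in every subset. It was at 3.1, 3.49 and 2.78 TPM in WT pDCs and 16.5, 12.4 and 7.81 in cKO pDCs, at 21.9 and 29.4 in WT cDC1s and 62.8 and 56.5 in cKO cDC1s, and at 17.7, 20.3 and 41 TPM in WT and 47.7, 41.1 and 43 TPM in cKO in cDC2s. Its adjusted p was 0.0108 in pDCs (0.00129 with the block, a call), 0.0129 in cDC1s and 0.0502 in cDC2s, where WT library 3 was less than 0.1 TPM under the lowest cKO library. Incenp (Gene ID 16319, chr19:9872295-9899489), the scaffold, was expressed in WT pDCs at 19.1, 15.9 and 18.8 TPM and stood at 36.4, 23.9 and 23.1 TPM in cKO. Incenp in cDC1s was at 21.5 and 28.6 TPM in WT and 57.9 and 53.4 TPM in cKO, and in cDC2s at 25.5, 25.6 and 47.4 TPM in WT and 54.6, 42.3 and 45.3 TPM in cKO, and it was called in cDC1s with 1.13 ± 0.27.

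Spindle motors and microtubule binders separate the poles and carry chromosomes. The 10 genes summed to 5.17 times the WT level in pDCs, 1.98 times in cDC1s and 1.28 times in cDC2s. Kif11, Kif22 and Nusap1 were called in pDCs, and Ckap2l, Kif11, Kif15 and Kif4 in cDC1s. The block gave 7 calls of 10 in pDCs. Kif11 (Gene ID 16551, chr19:37376382-37421863), the motor Eg5 that pushes the poles apart, was at 0.71, 1.24 and 0.83 TPM in WT pDCs and 14.4, 10.3 and 6.11 TPM in cKO pDCs. Kif11 in cDC1s was at 13.9 and 20.1 TPM in WT and 43.1 and 36.9 TPM in cKO, and in cDC2s at 27.2, 33.2 and 45.5 TPM in WT and 43.2, 54.9 and 40.2 TPM in cKO. It was called in pDCs (2.49 ± 0.27), in cDC1s (1.2 ± 0.24) and between WT cDC1s and WT cDC2s (-1.0 ± 0.22). Nusap1 (Gene ID 108907, chr2:119618298-119650165), a microtubule bundler, was at 0.83, 0.73 and 0.51 TPM in WT pDCs and 17, 8.45 and 6.06 TPM in cKO pDCs. Nusap1 in cDC1s was at 12.2 and 23.1 TPM in WT and 35.3 and 31.5 TPM in cKO, and in cDC2s at 34.1, 38.3 and 44.7 TPM in WT and 43.8, 64.7 and 44.8 TPM in cKO. The pDC difference was called (2.66 ± 0.31, adjusted p = 0.00566) and the cDC1 difference was not (adjusted p = 0.0195). Hmmr (Gene ID 15366, chr11:40701388-40733464), a spindle pole protein with a CHR and 5 CCAAT matches above, had the smallest mean fold change of the role. It was at 3.67, 3.84 and 4.3 TPM in WT pDCs and 6.35, 5.92 and 4.83 TPM in cKO pDCs, at 6.14 and 9.85 TPM in WT and 14.1 and 10.4 TPM in cKO in cDC1s, and at 10.5, 13.3 and 15.1 TPM in WT and 14.1, 14.1 and 10.9 TPM in cKO in cDC2s. Nothing was called for Hmmr, and the sign of its cDC2 value of 0.01 ± 0.19 turned in 3 leave-one-out fits.

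Cytokinesis genes form the central spindle and the contractile ring. The 6 genes summed to 1.86 times the WT level in pDCs, 1.87 times in cDC1s and 1.25 times in cDC2s. Kif23 was called in pDCs, and Anln and Racgap1 in cDC1s. With the block 3 of the 6 were called in pDCs. Racgap1 (Gene ID 26934, chr15:99620496-99651656), a GTPase-activating protein that pairs with the motor of Kif23 in centralspindlin, had a level in WT pDCs above that of the other genes of its role, at 43.7, 43.6 and 38.8 TPM. In cKO pDCs it was at 64.5, 60.4 and 49.8 TPM, with no overlap and 0.46 ± 0.10, not called. Racgap1 in cDC1s was at 20.1 and 28.5 TPM in WT and 58 and 56.7 TPM in cKO (called, 1.23 ± 0.24), and in cDC2s at 25.6, 24.7 and 42.6 TPM in WT and 43.8, 39.5 and 41.4 TPM in cKO. Anln (Gene ID 68743, chr9:22331214-22389211), the actin binder anillin, was at 0.13, 0.45 and 0.17 TPM in WT pDCs and 4.82, 2.43 and 2.19 TPM in cKO pDCs. Anln in cDC1s was at 2.78 and 4.95 TPM in WT and 10.9 and 10.4 TPM in cKO, and in cDC2s at 6.72, 7.12 and 10.4 TPM in WT and 12.6, 13.6 and 12.3 TPM in cKO. The genotypes were apart in each subset, and Anln was called in cDC1s (1.30 ± 0.23, adjusted p = 0.00181). In pDCs its adjusted p was 0.0129 without the block and 0.00555 with it. Ect2 (Gene ID 13605, chr3:27097222-27154253), the exchange factor that activates RhoA at the division plane, had the smallest mean fold change of the role and was not called. It was at 2.54, 3.37 and 3.66 TPM in WT pDCs, 7.18, 5.26 and 4.64 in cKO pDCs, 3.23 and 6.18 in WT cDC1s and 9.61 and 9.21 in cKO cDC1s, and at 7.62, 7.62 and 10.9 TPM in WT and 8.99, 10.5 and 9.89 TPM in cKO in cDC2s. WT cDC2 library 3 exceeded all 3 cKO cDC2 libraries for Ect2.

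Chromosome structure genes, the condensins with Top2a and Mki67, had the most calls for their number. The 7 genes summed to 2.36 times the WT level in pDCs, 2.24 times in cDC1s and 1.36 times in cDC2s. In pDCs 5 were called (Top2a, Mki67, Ncapd2, Ncapg and Ncaph), and in cDC1s the same 5 with Smc2. With the block Smc2 was called in pDCs too (adjusted p = 0.00709). Top2a (Gene ID 21973, chr11:98992947-99024199), the topoisomerase that untangles sister chromatids, was at 1.94, 2.37 and 1.74 TPM in WT pDCs and 36.8, 27.2 and 16.1 TPM in cKO pDCs. Top2a in cDC1s was at 36.1 and 57.4 TPM in WT and 126 and 108 TPM in cKO, and in cDC2s at 63.9, 73.8 and 93.3 TPM in WT and 106, 145 and 104 TPM in cKO. The groups did not overlap in any subset, and the pDC fold change of 3.13 ± 0.26 was the largest of the 48 genes tested (adjusted p = 0.00157). In cDC1s it was 1.34 ± 0.24 (adjusted p = 0.00214), and in cDC2s 0.61 ± 0.20 (adjusted p = 0.0541). Smc4 (Gene ID 70099, chr3:69004738-69034623), a condensin ATPase, was the other gene with a high level in WT pDCs, at 39.8, 40.1 and 42.7 TPM, beside 57.8, 54.1 and 43.1 TPM in cKO. Smc4 in cDC1s was at 52.2 and 67 TPM in WT and 93.2 and 81.3 TPM in cKO, and in cDC2s at 76.3, 87.7 and 90.4 TPM in WT and 82.9, 105 and 80.7 TPM in cKO. It had the smallest pDC fold change of the 48 (0.32 ± 0.11) and was not called in any subset. Its partner Smc2 was at 5.01, 5.4 and 5.51 TPM in WT pDCs and 14.3, 11.4 and 8.76 TPM in cKO pDCs.

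**Figure D3:**
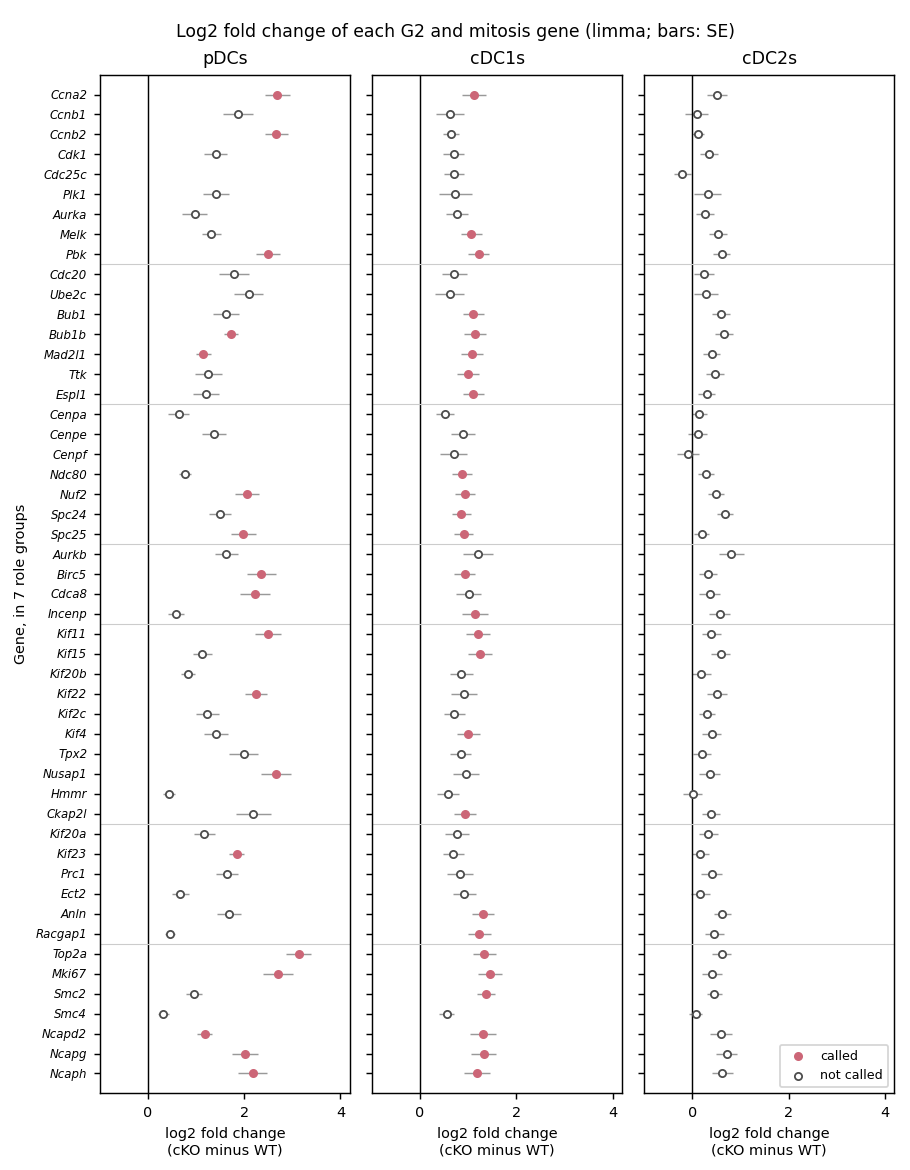
Log2 fold change of each of the 50 genes (rows) in pDCs, cDC1s and cDC2s (panels), as cKO minus WT on log2(TPM + 1) with limma standard errors as bars, filled where called. All 48 values in pDCs and all 50 in cDC1s lie right of 0, with 18 and 26 filled, and none is filled in cDC2s, where 48 of 50 lie right of 0.

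Of the 18 genes called in pDCs, 13 (72.2%) were also called in cDC1s, where 26 of all 50 genes were called. The 13 are 50% of those 26. How many of all genes were called in both subsets was not counted, and the overlap was not tested. The 13 were Birc5, Bub1b, Ccna2, Kif11, Mad2l1, Mki67, Ncapd2, Ncapg, Ncaph, Nuf2, Pbk, Spc25 and Top2a. Across the genes the size of the change was only loosely shared between pDCs and cDCs. Over 48 genes the log2 fold changes in pDCs and cDC1s had a Pearson r of 0.26 and a Spearman rho of 0.22, and those of pDCs and cDC2s 0.26 and 0.25. Over 50 genes those of cDC1s and cDC2s had 0.75 and 0.80. On the log2(TPM + 1) scale the pDC changes are understated near 0 TPM, and 23 of the 50 genes had a WT pDC mean under 1 TPM. The part of this in the lower pDC correlations was not tested. The genes share their libraries and are not independent, so the correlations are descriptions.

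**Figure D4:**
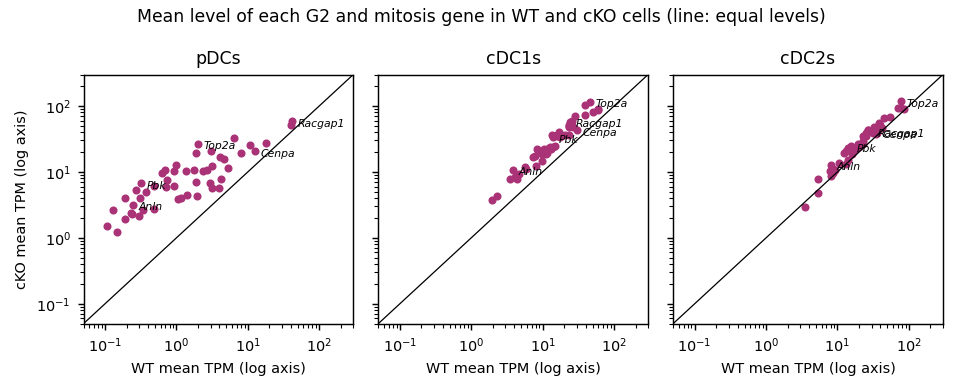
Mean TPM of each of the 50 genes in WT (x axis, log) and cKO (y axis, log) for pDCs, cDC1s and cDC2s, with a line at equal levels. In pDCs the points spread from 21.1 times above the line for Ncapg down to 1.27 times for Smc4, with larger median ratios at lower WT means. In cDC1s they run nearly parallel to the line at a median of 1.95 times and in cDC2s lie closer to it at 1.31 times.

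Other genes of the pathway, none of them among the 50, were listed by function and counted in the same fits. Of 70 other mitosis genes, 11 of 66 tested were called higher in pDCs, 31 of 70 in cDC1s and 7 of 70 in cDC2s, and none lower. The shares of all genes called higher were 0.814%, 15.8% and 3.59%. With the replicate block 26 were called in pDCs, beside 2.3% of all genes. The median log2 fold changes of this list were 0.85, 0.82 and 0.33, against -0.05, 0.17 and -0.03 for all genes. Shcbp1, a midbody protein, went from 4.07 and 9.11 TPM in WT to 35.5 and 33.5 TPM in cKO cDC1s and from 9.5, 12.7 and 13.2 TPM in WT to 23.6, 34.6 and 24.6 TPM in cKO cDC2s. It was called in both (2.31 ± 0.29 and 1.15 ± 0.24), and was at 0.17, 0.17 and 0.22 TPM in WT and 4.66, 3.34 and 1.29 TPM in cKO in pDCs (adjusted p = 0.0262, and 0.00822 with the block). Stmn1, a microtubule destabilizer, was called in pDCs (2.70 ± 0.22, 17, 19 and 16.8 TPM in WT and 159, 132 and 81.6 TPM in cKO) and in cDC1s (1.28 ± 0.19). Pttg1, the gene of securin, had the smallest mean fold change, with -0.03 ± 0.07 in pDCs, -0.18 ± 0.13 in cDC1s and -0.43 ± 0.11 in cDC2s, none called.

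Transcripts of the APC/C subunits are known to change little over the cell cycle. The list of 16 genes holds subunits together with the activator Fzr1 and the ubiquitin-conjugating enzyme Ube2s. None passed in pDCs (unadjusted limma p under 0.05 for 2) or cDC2s (for 1), and 4 (25%) were called higher in cDC1s, beside 15.8% of all genes. Relative to the median of all genes, 2 of these 4 subunits passed the fold limit. Anapc5 was called in cDC1s (0.95 ± 0.12, 101 and 106 TPM in WT and 203 and 199 TPM in cKO), as was Anapc1 (0.81 ± 0.16), and Anapc13 had -0.06 ± 0.12 there. Cohesin and its loaders hold sister chromatids together. Of 12 such genes none passed in pDCs (unadjusted limma p under 0.05 for 1) or cDC2s (for 3), and 8 were called higher in cDC1s, beside 15.8% of all genes. Relative to that median, 5 of these 8 passed. Esco2, the acetyltransferase of S phase, was called in cDC1s (1.17 ± 0.25) and was at 0.12, 0.16 and 0.17 TPM in WT and 5.44, 2.81 and 2.04 TPM in cKO pDCs, with an adjusted p of 0.0111, and 0.00336 with the block, the 1 call of this list there. Smc1a was called in cDC1s (0.96 ± 0.12), and Esco1 had -0.18 ± 0.15 in cDC1s and -0.51 ± 0.12 in cDC2s, neither called. Pds5b was the only gene of the lists called for the cDC1 effect minus the cDC2 effect (0.82 ± 0.15, adjusted p = 0.00905), and it is named because its values were seen.

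Of the 15 MuvB, DREAM and FOXM1 genes, regulators of promoters of this kind, 1 of 14 tested was called in pDCs. In cDC1s 8 of 15 were called and in cDC2s 3 of 15, and all calls were higher in cKO. The shares of all genes called higher were 0.814%, 15.8% and 3.59%. E2f8, a repressor made in S phase, was at 1.08, 0.72 and 0.49 TPM in WT pDCs and 16, 10.4 and 6.17 TPM in cKO pDCs, and was called there (2.68 ± 0.30) and in cDC1s (1.70 ± 0.26). Mybl2, the gene of B-MYB, was at 12 and 12.3 TPM in WT and 35.4 and 35 TPM in cKO in cDC1s and 6.56, 8.36 and 13.1 TPM in WT and 19.9, 17.5 and 17.3 TPM in cKO in cDC2s, called in both. In pDCs it was at 1.66, 1.47 and 1.2 TPM in WT and 8.47, 7.83 and 3.95 TPM in cKO, with an adjusted p of 0.014, and 0.00145 with the block, under which 2 of the 14 were called. Lin37, a MuvB subunit, was not called in any subset, with -0.15 ± 0.17 in cDC1s and -0.25 ± 0.14 in cDC2s.

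DNA replication genes act before mitosis, and were called in all 3 subsets. Of 16, 7 were called higher in pDCs, all 16 in cDC1s and 12 in cDC2s, none lower, with medians of 1.01, 1.48 and 0.91. Of all genes, 0.814% were called higher in pDCs and 15.8% in cDC1s. With the block 13 were called in pDCs. In cDC2s, where none of the 50 mitosis genes was called, these 12 calls stand beside a background of 3.59%, and whether the 2 lists differ was not tested. Pclaf, a partner of the replication clamp, was at 2.12, 2.64 and 1 TPM in WT pDCs and 41.6, 33 and 17.5 TPM in cKO pDCs and was called in pDCs (3.40 ± 0.33), cDC1s (1.44 ± 0.19) and cDC2s (0.82 ± 0.16). Rrm2, a ribonucleotide reductase subunit, was called in pDCs (2.99 ± 0.26) and cDC1s (1.31 ± 0.21) and had 0.79 ± 0.17 in cDC2s (adjusted p = 0.0113). Pcna, the clamp itself, was already at 198, 234 and 273 TPM in WT pDCs and was called in cDC1s alone of the 3 subsets (1.04 ± 0.19).

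Of 8 cell cycle brakes, 7 were tested. None passed in pDCs (unadjusted limma p under 0.05 for 3). In cDC1s 2 were called higher and 2 lower, and in cDC2s 1 was called lower. Of all 11411 genes, 1806 were called higher and 749 lower in cDC1s, and 406 were called lower in cDC2s. Btg1, an antiproliferative gene of quiescent lymphocytes, was at 366 and 522 TPM in WT and 134 and 145 TPM in cKO cDC1s, and at 789.7, 549 and 521 TPM in WT and 253, 271 and 276 TPM in cKO in cDC2s. It was called lower in both (-1.64 ± 0.21 and -1.19 ± 0.17), while in pDCs it was at 547, 669.9 and 617 TPM in WT and 371, 537 and 506 TPM in cKO (-0.39 ± 0.14, not called). The CDK inhibitor genes Cdkn2c and Cdkn2d were called higher in cDC1s (0.80 ± 0.15 and 0.92 ± 0.17), and Cdkn2d was at 119, 139 and 128 TPM in WT pDCs and 141, 156 and 142 TPM in cKO pDCs.

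**Figure D5:**
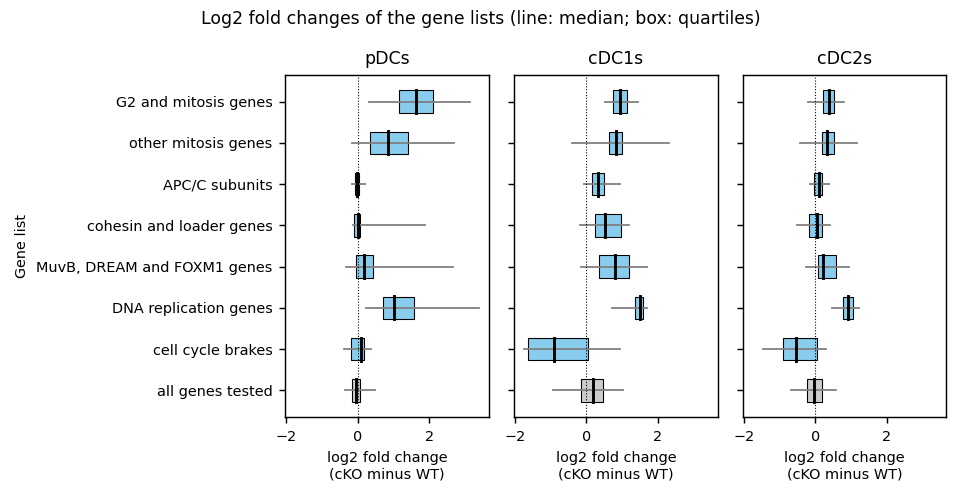
Log2 fold changes (x axis, cKO minus WT) of the 50 G2 and mitosis genes, of 6 other lists and of all genes tested (rows) in pDCs, cDC1s and cDC2s (panels), with the median as a thick line, quartiles as a box and the whole range as a thin line (for all genes, from the 5th to the 95th percentile). The 50 genes have medians of 1.63, 0.93 and 0.38 beside -0.05, 0.17 and -0.03 for all genes, and in cDC1s and cDC2s the DNA replication genes have larger medians, 1.48 and 0.91.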

How the data were processed

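RNA-seq was performed on 16 libraries of sorted splenic DCs, with single-end reads of 50 bases. According to the study's methods and the submitters' processing notes, the authors filtered reads with SOAPnuke, aligned them with HISAT2 2.0.4 and Bowtie2 2.2.5 to mm10, and estimated levels with RSEM 1.2.12. The release of the transcript reference is not given in the sources used here. The authors deposited TPM and FPKM values per gene, in a pDC table and a cDC table with different gene sets, so no test crosses the tables. The number of value columns without a sample was 0. The labels call the replicates biological.

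Since TPM is no count, log2(TPM + 1) was fitted with limma 3.58.1 in R 4.3.3 (lmFit, then eBayes with its trend option on), over 6 pDC or 10 cDC libraries, for genes with a mean of at least 1 TPM. P-values are two-sided and adjusted by Benjamini-Hochberg over all genes tested. Calls needed an adjusted p of at most 0.01 and a log2 fold change of at least 0.5 in size. Values on the deposited FPKM scale were an alternative. Scripts were tested on simulated data. Depth was estimated from TPM and FPKM and limits precision only through counting error. Counts and sums used pandas 2.3.3 on Python 3.11.15 (numpy 2.4.6), and plots were drawn in matplotlib 3.10.9.

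Replicate numbers were shared by WT and cKO. In pDCs, deviations from the group means of same-numbered libraries correlated with r of 0.31, 0.39 and 0.21 over genes. The numbers were taken as pairs on this ground, a choice made after seeing the data and not stated by the titles. The blocked pDC count is given beside each count it moves by over 1.5 times and each named call it changes. The block added no call among the APC/C subunits or brakes. The genes and lists were chosen with earlier results of these data known, so no p-value was adjusted over a list alone. In each of 7 roles, values in every library were given for the gene with the highest mean TPM and for those with the largest and smallest mean log2 fold change over the subsets, among genes tested in all 3. Genes not tested in a subset and Trim33 were added. Of other lists, 2 genes with the largest mean and 1 with the smallest were named.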

Additional observations from a re-analysis of the deposited data

Results flagged for a closer look

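Pds5b, a cohesin regulator, had a larger genotype effect in cDC1s than in cDC2s, by 0.825 on the log2 scale in limma's test of the difference itself (adjusted p = 0.00905). It was at 12 and 13.5 TPM in WT and 28 and 23.7 TPM in cKO cDC1s, and at 21.6, 21.2 and 22.2 TPM in WT and 23.4, 24.9 and 23.4 TPM in cKO cDC2s. It is the only gene of the 50 and of the 6 other pathway lists called for this difference.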

How the results depend on the processing

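The direction of the 50 genes in pDCs and cDC1s was positive in every fit run, while the number called moved widely. In pDCs, 18 became 0 with no filter, 11 of 23 with a filter at 5 TPM, 7 without the trend, 36 with the replicate block and 41 at an adjusted p of 0.05 with no fold limit, and 0 to 22 leaving out 1 library. In cDC1s, 26 became 10 with no filter, 13 with median-of-ratios scaling, 12 with quantile normalization, 14 with the replicate block and 44 at an adjusted p of 0.05, and 1 to 34 leaving out 1 library. In cDC2s, 0 became 1 with median-of-ratios scaling and 6 at an adjusted p of 0.05, and 0 to 8 leaving out 1 library. For the difference of effects, 1 gene passed at an adjusted p of 0.05, and 0 to 0 leaving out 1 library. Between WT cDC1s and cDC2s, 10 became 4 with no filter, 2 with median-of-ratios scaling, 4 with quantile normalization, 27 at an adjusted p of 0.05 and 4 with a fold limit of 1, and 1 to 21 leaving out 1 library. For all genes called for the difference of effects, 138 higher and 154 lower became 100 and 282 with median-of-ratios scaling.

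Of other mitosis genes in pDCs, 11 became 2 with no filter, 5 with a filter at 5 TPM, 4 without the trend, 26 with the replicate block and 31 at an adjusted p of 0.05. In cDC1s, 31 became 17 with no filter, 18 with median-of-ratios scaling, 15 with quantile normalization, 19 with the block, 52 at an adjusted p of 0.05 and 15 with a fold limit of 1. In cDC2s, 7 became 2 with no filter, 0 with the block, 2 with the subset fitted alone and 1 with a fold limit of 1. At an adjusted p of 0.05 the count was 18 (17 higher, 1 lower), and without WT cDC2 library 3 it was 15 (14 higher, 1 lower). Leaving out 1 library gave 0 to 13, 3 to 44 and 0 to 15 calls in the 3 subsets. Over the 50 genes the median log2 difference was 2.43 in pDCs with a pseudocount of 0.1, and 0.62 to 1.25 in cDC1s leaving out 1 library. Trim33 in pDCs passed with the replicate block (-0.68, limma adjusted p = 0.00361). In cDC2s Hmmr turned to -0.12, -0.05 and -0.05 without WT library 1, cKO library 1 and cKO library 2, Smc4 to -0.00367 and -0.047 without WT library 1 and cKO library 2, and Cenpf to 0.10 without WT library 3. Leaving out 1 library, Hmmr ran from -0.12 to 0.124, Smc4 from -0.047 to 0.138 and Cenpf from -0.237 to 0.10. The cause of these changes was not tested. In cDC1s same-numbered libraries deviated in opposite directions (r = -0.23), and the crossed pairing, chosen after seeing the data, called 27. In cDC2s the numbers did not pair the libraries (r from -0.25 to 0.25), and the block called 0. Of the single-gene values under the alternatives, 992 kept their direction and their side of the threshold, 101 no longer passed and 24 newly passed.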
